A study of Rattus norvegicus with 8 samples.

Results

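The zona pellucida is the glycoprotein coat that surrounds the mammalian egg, and in the rat its building blocks are encoded by Zp1, Zp2, Zp3 and Zp4. These 4 genes were taken by gene name from the probes of a rat ovary expression array, which gave 1 probe for each gene, 4 probes of the 30367 on the array. Ovary RNA had been measured on 8 arrays of 1 colour (Cy3), 4 labelled control and 4 labelled PMSG. PMSG, pregnant mare serum gonadotropin, acts mainly like follicle-stimulating hormone and in part like luteinising hormone. Per the labels, female rats were injected under the skin at 26 days of age with albumin phosphate buffer (0.2 ml), either alone or carrying 50 IU of PMSG. Their ovaries were collected after 48 h, when the rats were 28 days old. The strain is not given in the sources used here. The labels number the replicates but do not say that each came from a separate animal, so p-values measure the spread between these samples, which may be technical.

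Zona glycoproteins are made by the growing oocyte, are secreted through its membrane and polymerise into filaments through a shared folded unit called the ZP domain. ZP2 and ZP3 form the repeating filament, ZP1 cross-links filaments, and ZP4 is a close relative of ZP1. Sperm bind at the amino end of ZP2, which the egg's own protease ovastacin cleaves after fertilisation. In mouse ovaries, transcription of the zona genes depends on the oocyte factor FIGLA, which pairs with a widely expressed E protein and binds E-boxes, short DNA sites upstream of the genes.

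Values are log2 processed signals minus the 75th percentile of the same array, so a step of 1 is a 2-fold step in signal. Each direction follows the sample titles, PMSG minus control. This wording is used because 6 of 7 listed markers of luteinised cells (of which Ptgfr entered the test through the control-labelled arrays alone), among them Lhcgr, the receptor for luteinising hormone, and Cyp11a1, the side-chain cleavage enzyme, were lower in arrays labelled PMSG, which is not the direction that gonadotropin is generally known to give. Whether the labels of the groups were exchanged was not tested. The 75th percentile of the signal lay between 769 and 1103 over the 8 arrays, and 80.8% to 84.6% of probes were well above background. The number of arrays limits the precision. Each of the 4 zona probes was well above background on all 8 arrays. Of 25303 probes tested with limma, 34.2% passed an adjusted p of 0.05, 17.6% as higher in arrays labelled PMSG and 16.6% as lower.

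Each probe is 60 bases long, and its last 30 are shown because they lie nearest to the end of the stretch of transcript that the value reads. Capitals mark AATAAA, the letters of the usual polyadenylation signal.
Zp1: tgggctcAATAAAccattgtttgaaaactg
Zp2: ttggacttttgcaAATAAAagaggctgcag
Zp3: cccttcctcAATAAAagaagctcagttctg
Zp4: ctagcaaaggtcccgtgatcctcctccaag
The Zp1, Zp2 and Zp3 probes hold these letters 17, 11 and 15 bases before their end, and the Zp4 probe does not hold them in any of its 60. Of all probes on the array 8.39% do. In the build rn4 of the scanner files the Zp1 probe lies at chr1:213410162-213410221, the Zp3 probe at chr12:21805746-21805805 and the Zp4 probe at chr17:69577451-69577510, all on the minus strand. The files give the Zp2 probe as unmapped. No other probe on the array shares a run of 20 bases with any of the 4, on either strand.

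All 4 zona genes were higher in arrays labelled PMSG, between 3.04-fold for Zp4 and 4.51-fold for Zp2, and in each the lowest array labelled PMSG stood above the highest array labelled control, as in 17.9% of all tested probes. The zona probes lay far out in the distribution of all probes, in that 0.605% of tested probes had a larger increase than Zp2 and 2.74% had a larger one than Zp4. Each passed and was at least 2-fold higher, as were 7.2% of all tested probes. In whole ovary, more oocytes per unit of tissue and more RNA per oocyte cannot be told apart.

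Zp2, which carries the sperm binding region, had levels of -1.16, -0.39, -0.67 and -0.71 on the control-labelled arrays 1 to 4. On the PMSG-labelled arrays 1 to 4 it stood at 2.12, 1.82, 1.15 and 0.67. Control array 1 was lowest and PMSG array 1 highest, and the groups did not overlap. Zp2 was thus higher by 2.17 on the log2 scale, with an SE of 0.32 (limma adjusted p = 0.00148) and a 95% interval of 2.71-fold to 7.51-fold.

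Zp3, the filament partner of ZP2, had levels of 0.44, 1.26, 1.03 and 0.85 on the arrays labelled control. On those labelled PMSG the levels were 3.25, 3.00, 2.93 and 2.15. PMSG array 4 stood below the other arrays of its label, yet 0.88 above the highest control-labelled array. Zp3 was higher by 1.94 on the log2 scale, with an SE of 0.26 (limma adjusted p = 0.00103), or 3.83-fold with a 95% interval of 2.51 to 5.83.

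Zp1, the cross-linker, had levels of -0.83, 0.03, -0.25 and -0.46 on the arrays labelled control. Arrays labelled PMSG gave 2.15, 1.66, 1.49 and 0.76. The same arrays were again lowest and highest within each label, and the groups did not overlap. Zp1 was higher by 1.89 on the log2 scale, with an SE of 0.30 (limma adjusted p = 0.00207), or 3.72-fold with a 95% interval of 2.30 to 6.01.

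Zp4, the relative of ZP1, had levels of -2.71, -2.31, -2.37 and -2.58 on the arrays labelled control and of -0.41, -0.68, -0.65 and -1.81 on those labelled PMSG. Its processed signal ran from 159 to 213 in the first group and from 309 to 738 in the second. The gap between the groups was narrowest here, at 0.49, because of PMSG array 4. Zp4 was higher by 3.04-fold, with an SE of 0.29 on the log2 scale (limma adjusted p = 0.00381) and a 95% interval of 1.91-fold to 4.83-fold.

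**Figure D1:**
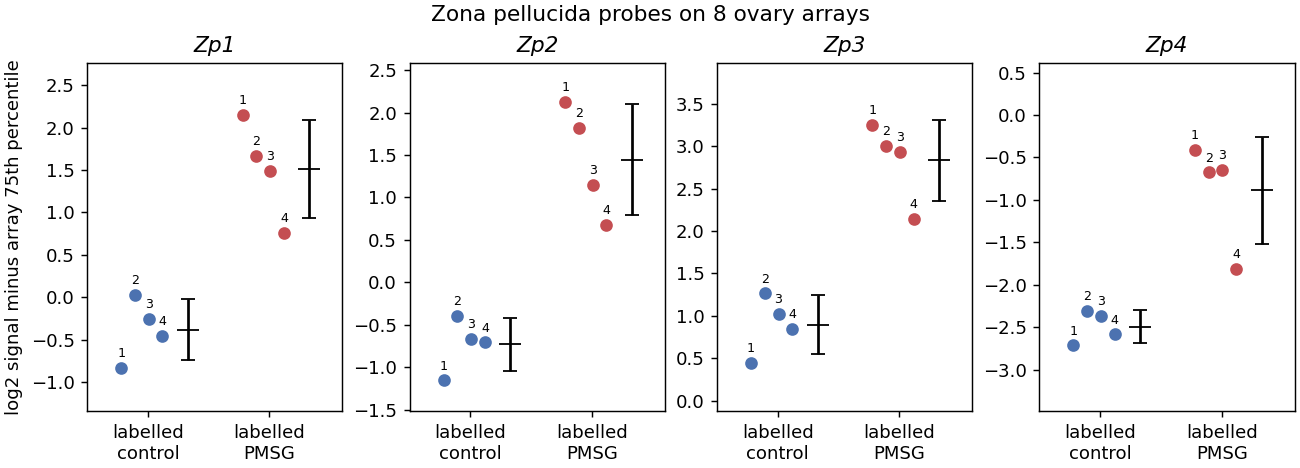
Level of each zona pellucida probe (log2 signal minus the 75th percentile of the array) on the 4 arrays labelled control and the 4 labelled PMSG, each panel with its own axis of equal span. Points are arrays with their replicate number and bars are mean ± SD (n = 4); in every panel the groups are apart, by 0.49 for Zp4 and by 1.07 for Zp2.

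The zona genes also moved together from array to array within a label. On the arrays labelled control the order from highest to lowest was array 2, 3, 4 and 1 for all 4 genes. On the arrays labelled PMSG it was 1, 2, 3 and 4 for Zp1, Zp2 and Zp3, and 1, 3, 2 and 4 for Zp4, whose arrays 2 and 3 differed little. Within the control label the span between the highest and lowest array was 0.41 for Zp4 and 0.76 to 0.86 for the others, and within the PMSG label it was 1.11 for Zp3 and 1.39 to 1.45 for the others. Duplicate spots of the same array were far closer, at most 0.08 apart for Zp1 and 0.11 for Zp3; Zp2 and Zp4 had 1 spot each.

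Deviations from the label means correlated between members with Pearson's r from 0.85 for Zp2 with Zp4 to 0.98 for Zp1 with Zp3, and Spearman's rho from 0.76 to 1 (8 arrays, as a description). Without the 2 arrays farthest from the median, r ran from 0.55 to 0.98 over 6 arrays, lowest for Zp2 with Zp4. These values share arrays and scaling. The mean of 16 other oocyte genes had the same order of arrays, 2, 3, 4 and 1 in the control label and 1, 2, 3 and 4 in the PMSG label. Its deviations correlated with those of the members at r = 0.86 for Zp4, 0.93 for Zp2, 0.96 for Zp1 and 0.97 for Zp3. Across 14078 genes ranked by their correlation with the mean deviation of the members, the median r was 0.09. Among listed oocyte genes the median was 0.86, and among oviduct epithelium markers -0.62.

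**Figure D2:**
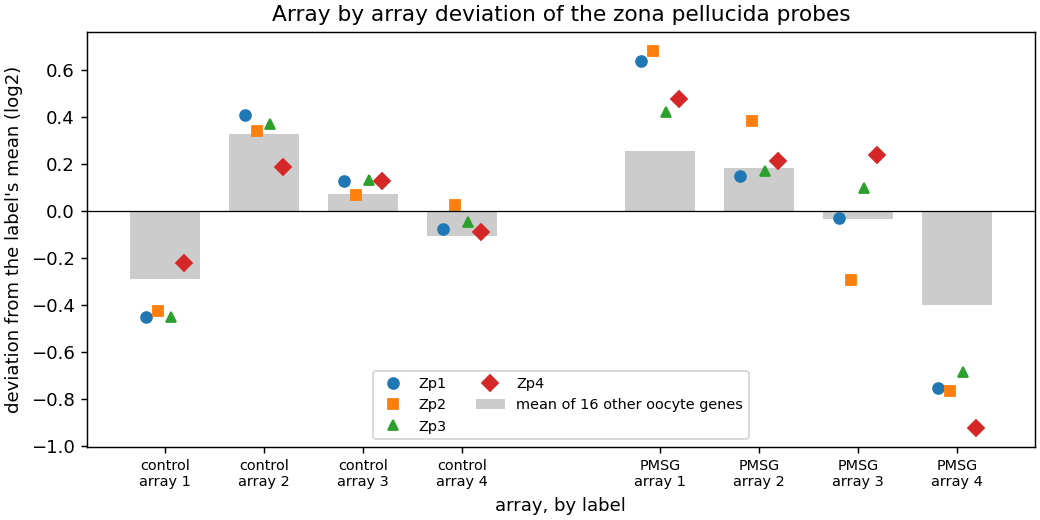
Deviation of each zona pellucida probe from the mean of its label (log2) on each of the 8 arrays, with grey bars for the mean of 16 other oocyte genes. The 4 members lie below 0 on control array 1 and on PMSG array 4, and above 0 on control array 2 and on PMSG array 1, on the same side as the bars.

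The genes most like the members within the labels, by Pearson's r of deviations over 8 arrays, were Nlrp9 (0.98), Wfdc3 (0.98), the defensin gene Np4 (0.98), the bromodomain gene Brdt (0.98) and Arhgap31 (0.97). Ranked on the 8 values themselves, where the difference between labels counts as well, the leading genes were Wfdc3, Brdt, Nlrp9, Astl and Afp, the gene of alpha-fetoprotein. Log2 differences were 1.94 for Wfdc3, 1.91 for Afp, 1.52 for Np4, 1.41 for Nlrp9, 1.30 for Brdt and 0.58 for Arhgap31, with limma adjusted p-values from 8.75e-04 for Afp to 0.0473 for Arhgap31. The call of Arhgap31 was lost under 13 of 17 alternatives, for instance without control array 1 (limma adjusted p = 0.116). A dimmer Nlrp9 probe also rose, by 0.84 (limma adjusted p = 0.0232).

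Whether the members changed unequally was asked within arrays, where scaling cancels, by comparing the difference between 2 probes of an array across labels. None of the 6 pairs passed after adjustment over the 6 (exact two-sided permutation tests, adjusted p from 0.129 to 0.600). With 4 arrays against 4 the smallest possible unadjusted p is 0.0286. A single pair at that p cannot pass after adjustment over the 6, so these tests cannot decide whether a lone pair changed unequally. The change of Zp3 minus that of Zp4 was 0.33 (SE 0.12, 95% interval 0.04 to 0.62), the single pair in which the groups did not overlap (exact p = 0.0286, adjusted 0.129). Zp2 and Zp4 were farthest apart, with a change larger in Zp2 by 0.57 (SE 0.19, interval 0.09 to 1.05, exact p = 0.0857, adjusted 0.129). Zp1 and Zp3 were closest, at -0.04 (SE 0.08, interval -0.23 to 0.14, exact p = 0.600). That interval is the narrowest of the 6.

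**Figure D3:**
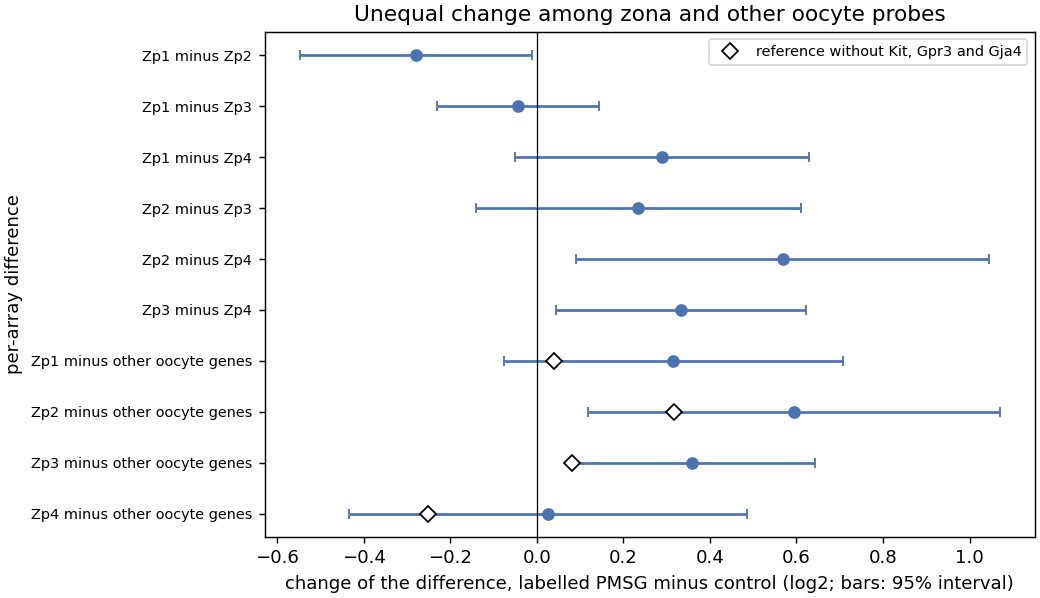
Change between labels of the per-array difference between 2 zona probes, and between a zona probe and the mean of other oocyte genes (log2, arrays labelled PMSG minus control; bars are 95% intervals). Open diamonds leave Kit, Gpr3 and Gja4, the smallest differences in the reference, out of it. This must lower every member, and moves Zp3 from 0.36 to 0.08 and Zp4 from 0.03 to -0.25.

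Other transcripts of the oocyte rose with the zona genes. Of 22 listed genes 18 were tested and 15 were higher in arrays labelled PMSG, where 17.6% of all tested probes passed as higher. The median log2 difference was 1.74, beside a median of 0.11 over all tested probes. With normexp background correction and its offset of 50, which shrinks the differences of dim probes most, these medians were 1.39 and 0.12. The largest differences were those of Npm2, a histone chaperone of the egg (2.30, SE 0.24, limma adjusted p = 3.81e-04), H1foo, the oocyte linker histone (2.22), and Zar1, a maternal-effect gene (2.18). These 3 exceeded all zona genes, and 7 listed genes lay below all zona genes. The growth factor genes Gdf9 and Bmp15, secreted by the oocyte, were higher by 2.05 and 1.14, or by 1.93 and 0.54 with normexp. Both of them also passed (limma adjusted p = 5.92e-04 and 0.00451).

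Against the mean of the 16 oocyte genes well above background on all arrays, the change was larger by 0.59 for Zp2 (SE 0.19), 0.36 for Zp3 (SE 0.12) and 0.32 for Zp1 (SE 0.16), and by 0.03 for Zp4 (SE 0.19). None passed after adjustment over the 4 members (exact two-sided permutation tests, p = 0.0286, 0.0286, 0.114 and 0.971, adjusted 0.0571, 0.0571, 0.152 and 0.971). Without PMSG array 4, Zp1, Zp2 and Zp3 each passed (adjusted exact permutation p = 0.0381), at 0.43, 0.72 and 0.45. Zp2 and Zp3 already had the smallest possible unadjusted p with all arrays. Their adjusted p fell only because Zp1 reached that smallest p as well. The reference held Kit, Gpr3 and Gja4, which other ovarian cells also express. Their differences, 0.89, 0.05 and 0.19, were the smallest in the reference, so leaving them out must lower the value of every member. Without these 3 genes, an alternative chosen after seeing the data, the values were 0.04 for Zp1, 0.32 for Zp2, 0.08 for Zp3 and -0.25 for Zp4, with adjusted exact permutation p-values from 0.457 to 0.771.

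The list of oocyte transcription factors and E protein partners was mixed. Of 10 genes 6 passed, all higher in arrays labelled PMSG, and 4 did not pass, where 17.6% of all tested probes passed as higher. Of the 6, Tbpl2 entered the test through the arrays labelled PMSG alone. The median log2 difference was 1.37, or 1.34 with Tbpl2 at its bound, 1.15 over the 9 genes above background on all arrays, 1.11 on the deposited values and 0.58 with normexp background correction. Figla, the factor named above, had a level of -3.01 ± 0.48 (SD, n = 4) under the control label and of -1.04 ± 0.08 under the PMSG label. Its rise of 1.97 had an SE of 0.22 (limma adjusted p = 4.66e-04). The homeobox genes Lhx8 and Nobox, required for the early growth of the oocyte, rose by 2.17 and 1.71, and the helix-loop-helix gene Sohlh1 rose by 1.15. Its relative Sohlh2 rose by 1.58 (SE 0.46, limma adjusted p = 0.0298) but lost its call under 6 of 17 alternatives, with the replicate block and without control array 2 or 4 or PMSG array 1, 2 or 3 (adjusted p up to 0.0737). The rise of Sohlh2 was 1.07 on the deposited values and 0.54 with normexp. Tbpl2, the oocyte form of the TATA-binding protein, was well above background on 4 arrays labelled PMSG and on 0 labelled control, and was at least 2.88-fold higher, or 0.63 on the log2 scale with normexp; since it was tested through its high group alone, its call is no support.

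The listed genes of E proteins, the family in which FIGLA has its partner, did not pass. Which of them pairs with FIGLA here was not tested. Log2 differences were -0.01 for Tcf3 (the brighter of its 2 probes, the other is not given here), 0.17 for Tcf4 and -0.01 for Tcf12. Their limma adjusted p-values ran from 0.310 to 0.951. The sign of Tcf3 turned with quantile normalization, and the signs of Tcf3 and Tcf12 turned with normexp. These genes are expressed in many cell types. Taf4b, carried on the array under an older name, stood at -0.51 (limma adjusted p = 0.103).

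Sequence upstream of the zona genes is shown because FIGLA is known to act there and because the members moved together. It was taken from RefSeq in the build GRCr8, which differs from that of the arrays, and 3 of the 4 members had an entry, Zp1, Zp3 and Zp4. Each line gives the 250 bases before the gene start on the gene's own, minus, strand, and capitals mark E-boxes, CANNTG.
Zp1 (chr1:216992149-216992398): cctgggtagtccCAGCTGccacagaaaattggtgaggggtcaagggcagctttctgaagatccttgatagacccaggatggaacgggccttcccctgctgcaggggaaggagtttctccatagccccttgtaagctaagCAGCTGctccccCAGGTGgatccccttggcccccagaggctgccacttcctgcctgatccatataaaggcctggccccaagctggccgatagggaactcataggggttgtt
Zp3 (chr12:26334127-26334376): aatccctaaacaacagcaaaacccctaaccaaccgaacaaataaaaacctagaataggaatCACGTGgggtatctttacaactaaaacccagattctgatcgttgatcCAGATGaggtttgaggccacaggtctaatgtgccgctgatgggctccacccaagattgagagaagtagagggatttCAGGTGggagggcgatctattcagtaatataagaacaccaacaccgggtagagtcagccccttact
Zp4 (chr17:63703701-63703950): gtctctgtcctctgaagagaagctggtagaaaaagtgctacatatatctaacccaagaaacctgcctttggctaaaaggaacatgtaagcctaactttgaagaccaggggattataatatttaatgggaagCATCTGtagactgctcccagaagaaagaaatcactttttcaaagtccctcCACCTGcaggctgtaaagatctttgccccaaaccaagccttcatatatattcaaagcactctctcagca
CANNTG reads the same on both strands. It occurs 3 times upstream of Zp1, 3 times upstream of Zp3 and 2 times upstream of Zp4, where 65.5% of 33465 promoter windows of this length hold at least 1 and 30.8% at least 2. All 3 windows hold the form CAGGTG, searched on both strands, beginning 99 bases before the start in Zp1, 66 in Zp3 and 69 in Zp4, where it reads CACCTG on the gene strand. CAGGTG or its complement occurs in 15.9% of all windows of 250 bases and in 6.36% of the last 100 bases; this form was singled out after the sequences were seen. TATAAA, searched on both strands, occurs in the Zp1 window, 50 bases before the start, and in 12.9% of all windows. These matches are letters in a window and not sites of binding.

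Genes that process the zona or sit at the egg surface were mixed. Of 9 tested, 5 were higher, 1 was lower and 3 did not pass, with a median of 0.49. Over all tested probes 17.6% passed as higher and 16.6% as lower, with a median of 0.11. Astl, which encodes ovastacin, the protease that cleaves ZP2, rose most. Its level was 0.30 ± 0.48 (SD, n = 4) under the control label and 2.31 ± 0.51 under the PMSG label, a rise of 2.01 with an SE of 0.31 (limma adjusted p = 0.00179). A dimmer Astl probe rose by 1.33. Fetub, whose product fetuin-B inhibits ovastacin, rose by 1.28 (limma adjusted p = 8.87e-04), or by 0.71 with normexp. Cd9 and Izumo1r, which the egg needs to fuse with and bind sperm, rose by 1.09 and 0.91 (limma adjusted p = 0.00276 and 0.00560). With normexp the rises of Cd9 and Izumo1r were 1.02 and 0.47. Pcsk6, a proprotein convertase, rose by 0.49 (limma adjusted p = 0.0146) and did not pass with median centring (0.0774) or in a second probe (0.53, adjusted p = 0.147). C1galt1, which starts the core of O-linked sugar chains, was lower, at -1.06 with an SE of 0.12 (limma adjusted p = 5.07e-04).

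Genes of other ZP domain proteins did not pass as higher. Of the 8 tested, 0 were higher past the adjusted threshold in limma and 1 was lower, with a median of 0.18, which was -0.24 over those above background on all 8 arrays. The lower one was Eng, the endothelial receptor endoglin, at -0.90 (SE 0.14, limma adjusted p = 0.00186). Tecta and Tectb, which encode proteins of the inner ear's tectorial membrane, stood at 0.94 (limma adjusted p = 0.0590) and 1.17 (0.111). Tecta passed in limma without PMSG array 4 (1.29, adjusted p = 6.22e-04) and with quantile normalization or array weights. Tectb, read from the brighter of its 2 probes, was above background on 3 of 4 control-labelled arrays. It passed in limma without control array 3 (the Tectb difference was then 1.55, adjusted p = 0.0397) and with the replicate block. Without an adjustment, 2 of these higher genes had a p under 0.05 in limma, Tecta and Tgfbr3. At least 34.2% of all tested probes had a p that low, since that share passed after adjustment, 17.6% as higher. The count of 2 thus does not set this list apart.

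Of 6 genes for sperm proteins that meet the zona, 3 were tested. Zpbp, Spam1 and Adam3 were well above background on 0 of 8 arrays. Zp3r rose by 1.08 (SE 0.29, limma adjusted p = 0.0219) in 1 probe while its other probe was above background on 0 arrays, and it lost its call without control array 1, 2 or 4 or PMSG array 1, 2 or 3 (adjusted p up to 0.0576). Zpbp2 rose by 0.64 (SE 0.15, limma adjusted p = 0.0106) and by 0.86 in a second probe, and did not pass with median centring (0.0872). Zan stood at 0.53 (limma adjusted p = 0.120).

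**Figure D4:**
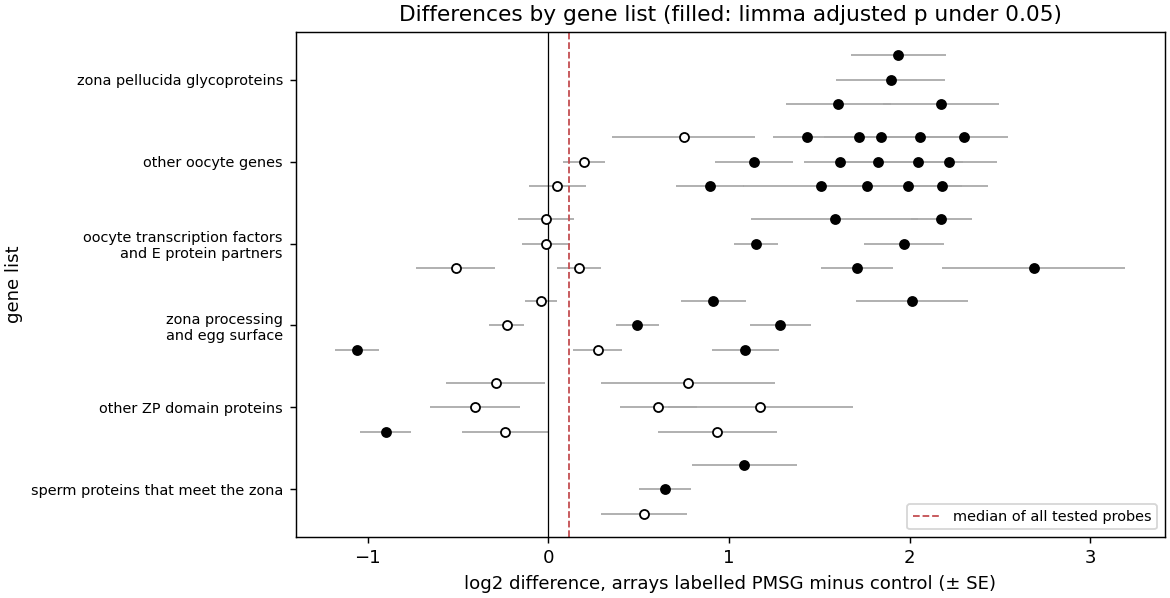
Log2 difference of each tested gene of 6 lists with its SE, arrays labelled PMSG minus arrays labelled control, by gene list (n = 4 arrays a label; filled points passed a limma adjusted p of 0.05). The zona genes, of which Zp2 at 2.17 is the highest, lie among the other oocyte genes and to the right of most other ZP domain proteins; the dashed line is the median of all tested probes, 0.11. The point at 2.69 is Tbpl2, drawn at its fitted value although its bound is 1.52.

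Lists of markers of other cells in the ovary varied in how far they moved, and their part in the zona result was not tested. For the counts below, 17.6% of all tested probes passed as higher and 16.6% as lower. Of 9 granulosa markers tested, 1 was higher and 1 lower, near the shares over all probes, with a median of 0.17 and a range of -0.57 to 3.03. Their mean level ran from 1.81 to 2.35 on arrays labelled control and from 2.25 to 2.54 on those labelled PMSG. Among theca markers 3 of 5 were higher and 1 lower, with a median of 0.79, or 0.34 with normexp, and mean levels of 0.37 to 0.57 and of 0.78 to 1.27. Leukocyte markers had 5 of 6 higher and a median of 0.66, with mean levels of -0.25 to 0.03 and of 0.52 to 0.64. Stroma and smooth muscle markers had 2 of 6 higher and a median of 0.35, with mean levels of 3.53 to 3.91 and of 3.79 to 4.27. Endothelium markers had 1 higher and 3 lower of 6 and a median of -0.30, or -0.46 with median centring, with mean levels of -0.94 to -0.66 and of -1.32 to -0.84. Oviduct epithelium markers were higher in 5 of 6, with a median of 1.89, or 1.47 with partly dim genes at their bounds, and their mean level ran from -2.74 to -2.09 on arrays labelled control and from -0.78 to -0.31 on those labelled PMSG. Luteinised cell markers were lower in 6 of 7, with a median of -2.75, or -1.93 with dim genes at their bounds. Of these 6, Ptgfr was above background on 0 arrays labelled PMSG and Akr1c18 on 1. The mean level, in which such dim signals enter as measured, ran from 2.56 to 2.82 on arrays labelled control and from -1.05 to -0.04 on those labelled PMSG. For the granulosa marker Cyp19a1, aromatase, the 1 matched probe was above background on 0 of 8 arrays. That probe was matched by its transcript and not by gene name, and has no genome position. Whether it can read aromatase was not tested.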

How the data were processed

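Per the file headers, the authors extracted spot intensity with Agilent Feature Extraction 11.5.1.1 from 1-colour arrays, which gives background-subtracted, detrended signals. The authors also deposited log2 values per probe and array with scale and centring unstated; set against the scanner files, each column correlates with its own array's log2 signal after subtraction of the 75th percentile at r of at least 0.998, though some dim values differ, with column medians from -3.21 to -2.82. Columns not used numbered 0. Outlier-called spots were left out, log2 processed signals of a probe's spots were averaged, and each array's 75th percentile was subtracted. Probes well above background on at least 4 of 8 arrays (at least 0.5 of a probe's spots) were tested with limma 3.58.1 in R 4.3.3, with Benjamini-Hochberg adjustment over all 25303. Where a group was not above background on every array, a bound takes the higher of the probe's own value and the array's lowest single spot above background. Interval widths of the within-array differences use the SE and 6 degrees of freedom. On simulated data of 25303 probes, 53% of 100 probes changed by a log2 of 1 and 84% of 100 changed by 2 were recovered. No other probe was changed in the simulation, whereas 34.2% passed in the data. The adjusted threshold was therefore stricter there, and these rates are not those of the fit reported here.

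The members and lists were chosen with earlier results of these data known. Named are the members, the 3 largest differences per list, the passing genes of the transcription factor and zona processing lists, the 5 genes most like the members by each measure, and Gdf9, Bmp15, Taf4b and the E proteins, which were added by name; for marker lists, counts, medians and mean levels are given. The brightest probe stood for a gene. Listed genes without a probe here, such as Ooep and Tle6, were not analysed here. Replicate numbers do not pair the arrays by their labels.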

Additional observations from a re-analysis of the deposited data

Results flagged for a closer look

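Among 74 groups of 4 values examined, those of the members and of the other named genes, 2 had 1 array far from the others, where chance gives about 1 in 20, here 3.7. Figla stood apart on PMSG array 3 (gap 0.836 of the range), at -0.93 against -1.10 to -1.07 on the other arrays of that label. The defensin gene Np4 stood apart on control array 1 (gap 0.830), at -3.51 against -2.92 to -2.81. No group of a zona gene was set apart in this way. The nearest was Zp4 in arrays labelled PMSG (0.812), where array 4 was lowest.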

How the results depend on the processing

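The 4 zona genes kept their direction and their call under all 17 alternatives tried, with log2 differences of 1.68 to 2.15 for Zp1, 1.95 to 2.43 for Zp2, 1.77 to 2.17 for Zp3 and 1.40 to 1.91 for Zp4, and limma adjusted p-values up to 0.0136. For each, the highest value came without PMSG array 4. With the replicate block, adjusted p-values were 0.0117 for Zp1, 0.00970 for Zp2, 0.00769 for Zp3 and 0.0117 for Zp4, and no call of a member changed; same-numbered arrays correlated at -0.02 to 0.18. The count of differing probes, 8658, was lowest at 6552, when control array 4 was omitted, and highest at 11382, when PMSG array 4 was. The count of higher probes, 4452, was 2914 with median centring and between 3273 and 6982 with single arrays omitted, highest without PMSG array 4, and median centring moved the median of all probes to -0.05. Relative to the other oocyte genes, Zp1, Zp2 and Zp3 passed with normexp background correction (0.49, 0.75 and 0.56, each with an adjusted exact permutation p of 0.0381). That correction added an offset of 50 to each signal, which shrinks log2 differences of dim probes most. With it Zp1, Zp2 and Zp3 went from 1.89, 2.17 and 1.94 to 1.80, 2.06 and 1.88. The median of the listed oocyte genes went from 1.74 to 1.39. The part of the offset in these calls was not tested. With any single array omitted, Zp1, Zp2 and Zp3 relative to the other oocyte genes spanned 0.19 to 0.43, 0.45 to 0.72 and 0.30 to 0.45, passing without PMSG array 4 alone. In both settings Zp2 and Zp3 passed only because Zp1 also reached the smallest possible unadjusted p. Zp4 spanned -0.065 to 0.20 with single arrays omitted and turned to -0.25 with the reference without Kit, Gpr3 and Gja4. These genes had the smallest differences in the reference, so leaving them out must lower every member. The cause of the other shifts was not tested. The sign of Tcf3 turned with normexp (0.0064), quantile normalization (0.073) and array weights (0.039), that of Tcf12 with normexp (0.026), and both with single arrays omitted (Tcf3 from -0.095 to 0.070, Tcf12 from -0.13 to 0.075). Of 26 other named genes past the threshold, 21 kept their call under each alternative in which they were tested and 5 lost it under at least 1; Tbpl2 was not tested with the filter on all 8 arrays.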
